A study of Mus musculus with 6 samples.

Results

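The 335 EWS-FLI1 peaks that ChIP-seq gave on chromosomes 1 to 19 of ES49, a mouse Ewing sarcoma cell line, are described here by their distance to acetylated and to Polycomb-marked chromatin of the same line. They are the autosomal peaks of a list of 681, out of 76477 peaks in the 5 lists of the series, and the 346 peaks on chromosomes X and Y were left out. Each was sorted by the gap, in base pairs between the nearest edges, to the closest of 29009 autosomal H3K27ac peaks and to the closest of 19412 autosomal H3K27me3 peaks. The 5 classes were a distance of 0 (at least 1 shared base), up to 1 kb, 1 to 5 kb, 5 to 50 kb and over 50 kb.

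The series holds ES48 and ES49, both on a Balb/c background, made up of tumour cells induced by EWS-FLI1 and grown without any special treatment. In each line EWS-FLI1 was precipitated with an anti-FLAG antibody and H3K27ac with an antibody to that mark; H3K27me3 was precipitated in ES49. Each of the 6 samples, an ES49 input included, is the only library of its kind, so no comparison below has replicates and none carries a test. The labels do not say whether either line is a single clone. Cell identity cannot be checked from peak positions, and the labelled cell type was taken as given. Positions are in mm9, and no gene is named, since mm9 gene models were not used here.

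EWS-FLI1 joins the amino-terminal part of EWS, an RNA-binding protein with a strong activating region, to the ETS DNA-binding domain of FLI1, and it is the driver of Ewing sarcoma. The fusion binds single ETS sites and runs of the tetranucleotide GGAA, and it recruits acetyltransferases and chromatin remodellers to some sites while repressing others. H3K27ac marks active promoters and enhancers, and H3K27me3 is placed on the same lysine by the Polycomb enzyme EZH2, so that one histone tail cannot carry both.

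Most of the 335 EWS-FLI1 peaks overlapped neither mark (243, 72.5%), with a minority on acetylated chromatin and a small set on both marks at once. At a distance of 0 from H3K27ac lay 78 peaks (23.3%, 95% Clopper-Pearson interval 18.9 to 28.2). A further 15 lay up to 1 kb away, 16 at 1 to 5 kb, 68 at 5 to 50 kb and 158 (47.2%, 41.7 to 52.7) over 50 kb away. For H3K27me3 the numbers were 29 at 0 (8.66%, 5.87 to 12.2), 22 up to 1 kb, 8 at 1 to 5 kb, 21 at 5 to 50 kb and 255 (76.1%, 71.2 to 80.6) over 50 kb. These intervals cover counting error within 1 library, and they are too narrow even for that, because neighbouring peaks are not independent: the 335 peaks form 214 loci when peaks under 5 kb apart are joined. The 8.66% on H3K27me3 was 13.8% for the upper 50% of EWS-FLI1 peaks by score, 3.88% with the upper 50% of histone peaks and, lower by construction, 4.67% without the 14 peaks that overlap all 4 other lists.

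The classes were set against the share of the autosomes that lies at each distance, counted base by base between the first and last peak of each chromosome in any list. H3K27ac covered 1.46% of that span and a further 1.84% lay up to 1 kb away, against 23.3% and 4.48% of the EWS-FLI1 peaks. From 1 to 5 kb the shares were close, 5.46% of the span and 4.78% of the peaks. However, 11 of these 16 peaks lay in crowded loci, runs of at least 10 EWS-FLI1 peaks each less than 500 kb from the next. Without such loci 245 peaks remained, and 2.04% of them (0.666 to 4.70) lay at 1 to 5 kb, below the share of the span. Over 50 kb from H3K27ac lay 65.6% of the span and 47.2% of all the peaks. H3K27me3 covered 0.682% of the span, with 0.914% up to 1 kb away, against 8.66% and 6.57% of the peaks, and 85.3% of the span lay over 50 kb from it, against 76.1% of the peaks. A peak is wider than a base and so meets other peaks somewhat more often, but with only the midpoint of each EWS-FLI1 peak the shares at 0 and over 50 kb stayed within the intervals above. With all peaks counted, their share was thus well above that of the span within 1 kb of either mark. At 1 to 5 kb from H3K27me3 the shares were close, 2.39% of the peaks and 2.06% of the span. Crowded loci held 17 of the 22 peaks up to 1 kb from H3K27me3 and 7 of the 8 at 1 to 5 kb. Without these loci the shares of peaks were 2.04% (0.666 to 4.70) and 0.408% (0.0103 to 2.25). Up to 1 kb from H3K27ac the share was then 3.67% (1.69 to 6.86). Each of these intervals includes the share of the span. At 0 the shares were 28.6% for H3K27ac and 6.12% for H3K27me3, still well above it. With the peaks that overlap all 4 other lists also left out, both shares fall by construction. On H3K27ac were then 61 of 236 peaks (25.8%, 20.4 to 31.9). On H3K27me3 were 6 (2.54%, 0.939 to 5.45), in 5 loci.

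**Figure D1:**
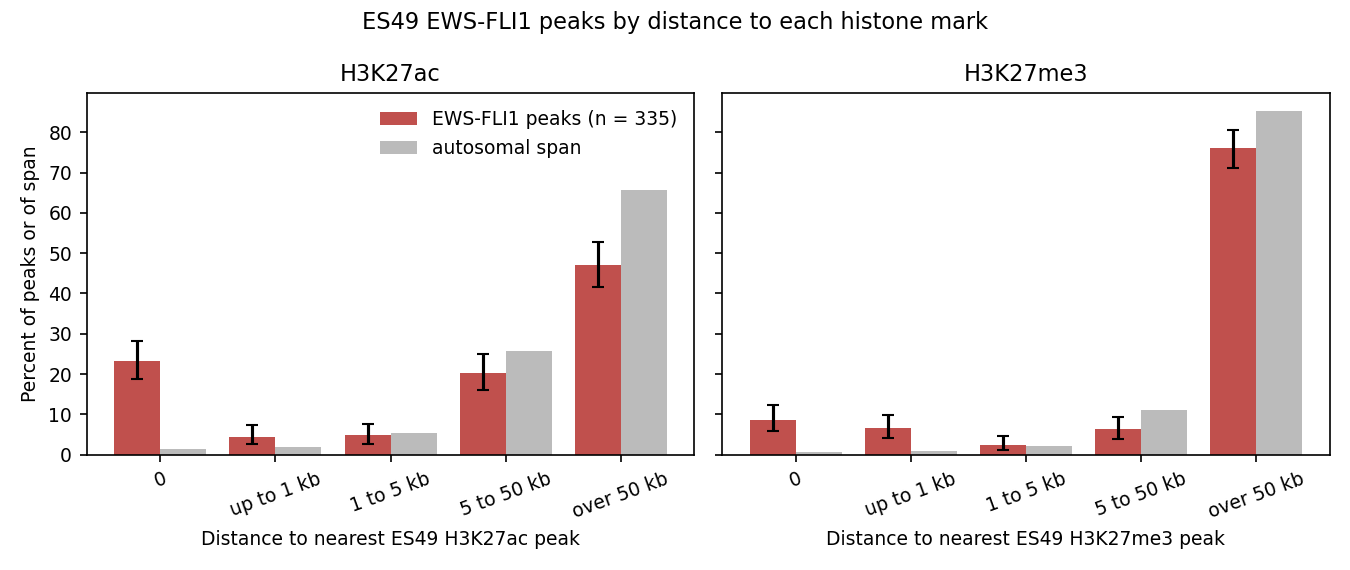
Share of the 335 autosomal ES49 EWS-FLI1 peaks (red, with 95% Clopper-Pearson intervals) and of the autosomal span (grey) in each class of distance to H3K27ac (left) and H3K27me3 (right). The red bar is taller than the grey one at distance 0 and up to 1 kb for both marks, and shorter at 5 to 50 kb and over 50 kb.

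Sorted by both distances at once, the peaks gathered in a few combinations. The largest held 136 peaks (40.6%, 35.3 to 46.1) over 50 kb from both marks. The next held 60 peaks (17.9%, 13.95 to 22.4) that overlapped H3K27ac and lay over 50 kb from H3K27me3, then 43 peaks at 5 to 50 kb from H3K27ac and over 50 kb from H3K27me3, and 15 peaks (4.48%, 2.53 to 7.28) that overlapped both marks. Of the peaks on H3K27ac, 0 lay between 1 and 50 kb from H3K27me3: they were either on it, within 1 kb of it (3 peaks) or over 50 kb away. Few of all 335 peaks lay in that range, 8 (2.39%) at 1 to 5 kb and 21 (6.27%) at 5 to 50 kb. Crowded loci held 7 of the 8 and 10 of the 21. Of the 29 peaks on H3K27me3, 15 were also on H3K27ac, 1 lay at 1 to 5 kb from it, 5 at 5 to 50 kb and 8 over 50 kb away.

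**Figure D2:**
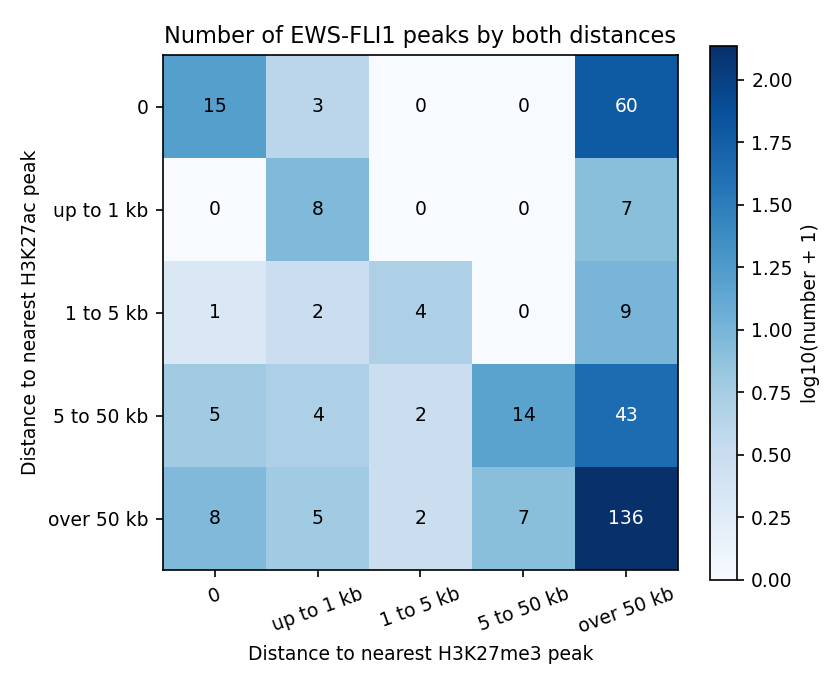
Number of ES49 EWS-FLI1 peaks in each combination of distance to H3K27ac (rows) and to H3K27me3 (columns), with the shade on a log10 scale. The counts gather in the column over 50 kb from H3K27me3, which holds 60 peaks on H3K27ac and 136 over 50 kb from it, and the corner of both marks holds 15.

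The members next to each class limit were the following. For H3K27ac, the smallest overlap was 63 bp, at chr5:78412843-78413210 (368 bp, score 67.2), and the nearest peak without overlap was 48 bp away, at chr2:27355995-27356190 (196 bp, score 92.0). The peaks on either side of 1 kb lay at 634 and 1123 bp (194 and 277 bp wide, scores 103.8 and 102.2). Those around 5 kb lay at 4209 and 5017 bp (408 and 204 bp, 60.6 and 57.6), and those around 50 kb at 49853 and 51333 bp (2289 and 94 bp, 63.8 and 72.6). The widest gap in width between neighbours was at the 50 kb limit.

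For H3K27me3, several of the members next to a limit came from crowded loci on chromosomes 8 and 2, where a crowded locus is a run of at least 10 EWS-FLI1 peaks each less than 500 kb from the next. The smallest overlap was 78 bp at chr8:72126978-72127313 (336 bp, score 53.3), and the nearest peak without overlap lay 44 bp off at chr2:27352796-27353300 (505 bp, score 245). The pair at 1 kb lay at 891 and 1116 bp (275 and 243 bp wide, scores 55.2 and 158.6). The pair at 5 kb lay at 2004 and 6225 bp (439 and 260 bp, 68.1 and 64.5), and that at 50 kb at 49493 and 51394 bp (701 and 112 bp, 66.2 and 74.9).

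Peaks were wider near H3K27ac than far from it. The median width was 376 bp (quartiles 316 and 449, range 187 to 5880) for the 78 peaks on H3K27ac and 193 bp (113 and 295, range 75 to 7497) for the 158 over 50 kb away. Narrow peaks were rare on H3K27ac: 1 of the 78 peaks on H3K27ac was under 200 bp (1.28%), against 81 of the 158 over 50 kb from it (51.3%). The classes between had medians of 364 bp up to 1 kb, 288 bp at 1 to 5 kb and 364.5 bp at 5 to 50 kb, with wide quartiles. The high value at 5 to 50 kb went with crowded loci, which held 39 of its 68 peaks, and without them it was 219 bp over 29 peaks.

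Along the distance to H3K27me3 the widths were as follows. The median was 400 bp (quartiles 314 and 483) for the 29 peaks on H3K27me3, 314.5 bp up to 1 kb, 325 bp at 1 to 5 kb, 248 bp at 5 to 50 kb and 268 bp (155 and 413.5) over 50 kb. The last class holds the 60 peaks on H3K27ac as well as the 136 far from both marks, whose own median was 183.5 bp.

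**Figure D3:**
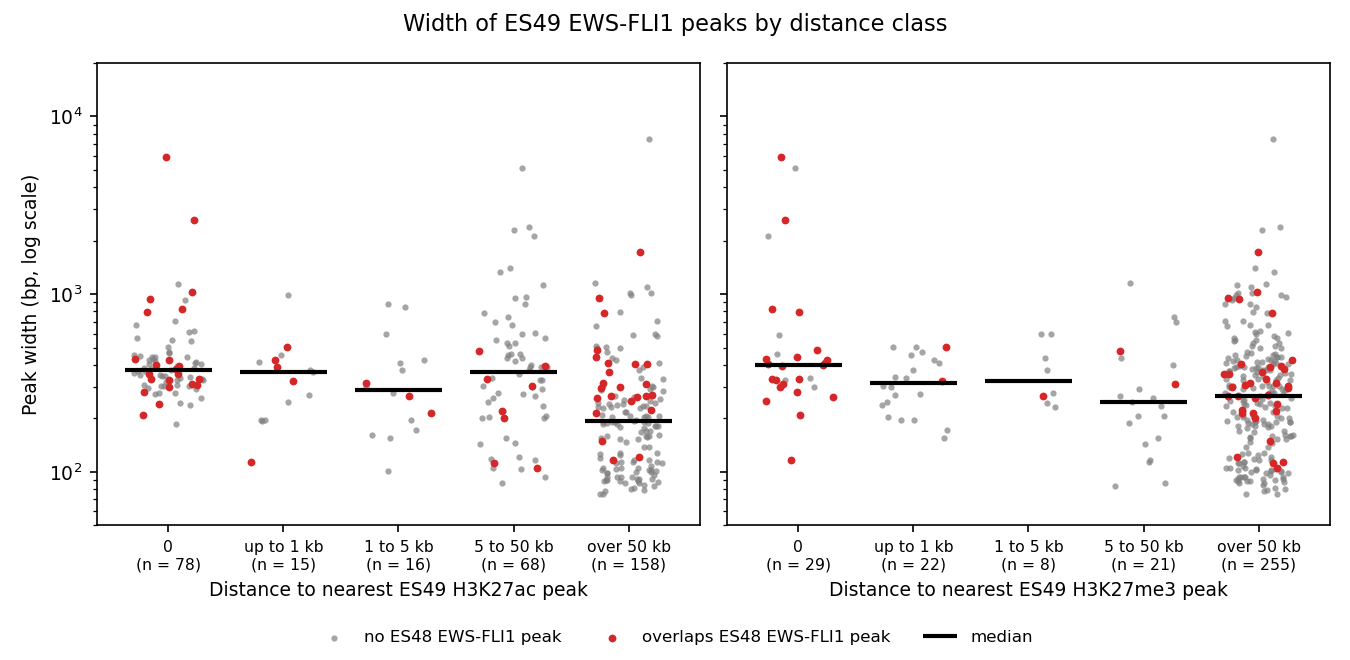
Width of each ES49 EWS-FLI1 peak (log scale) by class of distance to H3K27ac (left) and to H3K27me3 (right), with the class median as a bar and peaks that overlap an ES48 EWS-FLI1 peak in red. Peaks under 200 bp are nearly absent at distance 0 from either mark (1 in each) and make up 81 of the 158 over 50 kb from H3K27ac.

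Score rank behaved differently from width. The deposited score was ranked within the autosomal list and is given as a percentile, with 100 the highest. Along the distance to H3K27ac the medians stayed near the middle of the list: 53.3 at 0 (quartiles 26.0 and 83.1), 63.9 up to 1 kb, 51.3 at 1 to 5 kb, 42.6 at 5 to 50 kb and 49.1 over 50 kb (26.3 and 75.3). The quartiles of all 5 classes overlapped. Against H3K27me3 the class at 0 stood above the rest, with a median of 86.0 (quartiles 54.6 and 97.6), followed by 50.7 up to 1 kb, 55.4 at 1 to 5 kb, 31.6 at 5 to 50 kb and 48.1 over 50 kb (25.2 and 72.0). Of the 29 peaks on H3K27me3, 20 were among the 84 highest-scoring members, the top 25.1% of the list (69.0%), against 64 of the 306 others (20.9%).

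**Figure D4:**
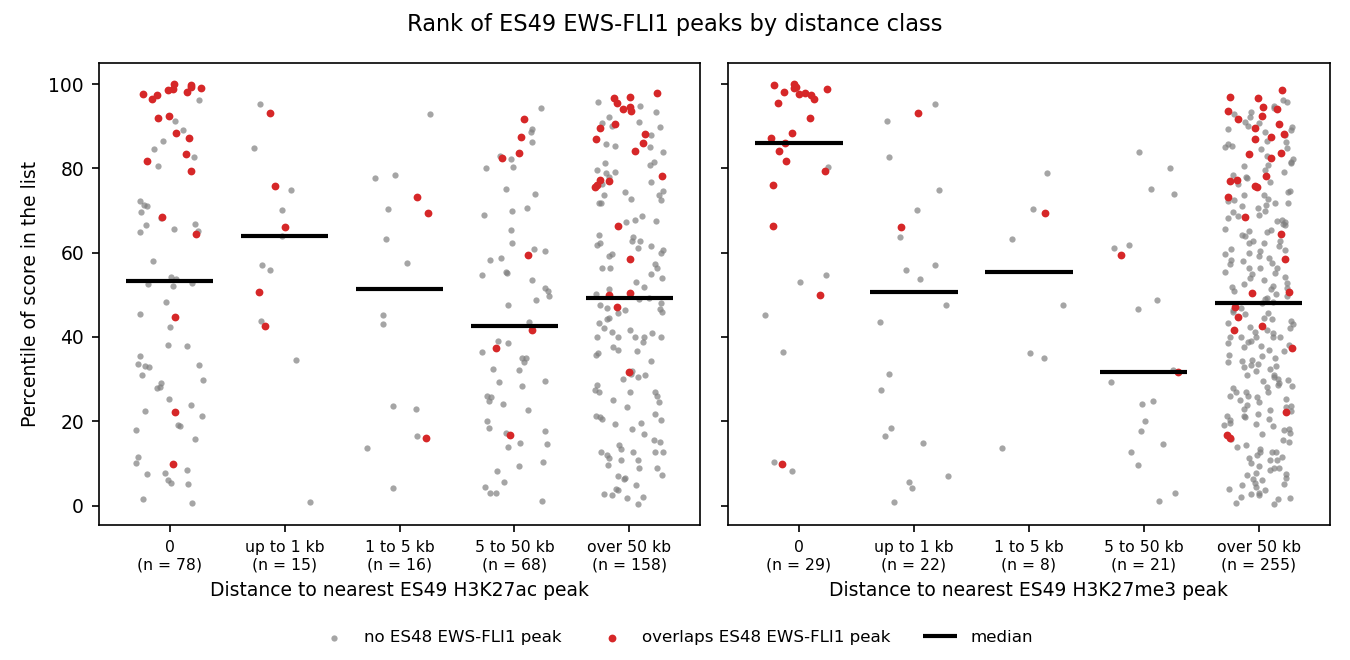
Percentile of the score of each ES49 EWS-FLI1 peak within the autosomal list by distance to H3K27ac (left) and H3K27me3 (right), with class medians as bars and peaks that overlap an ES48 EWS-FLI1 peak in red. The median at distance 0 from H3K27me3 is 86.0 and the other medians lie between 31.6 and 63.9 in both panels.

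The middling rank on H3K27ac was made of unlike parts. The 15 peaks on both marks had a median percentile of 97.3 (quartiles 87.8 and 99.0), and 14 of them were among the 84 highest. The 63 peaks on H3K27ac without H3K27me3 had a median of 42.4 (22.2 and 67.5), below that of the whole list, with 10 among the 84 highest and 17 that scored under 60, where the list starts at 50.1. The 14 peaks on H3K27me3 without H3K27ac had a median of 60.4 (46.3 and 83.2), and the 243 on neither mark 48.1 (24.6 and 73.0). Of the 10 highest-scoring autosomal peaks, 8 were on both marks, 1 was on H3K27ac alone and 1 on H3K27me3 alone. Without the 14 peaks that overlap all 4 other lists, the median percentile on H3K27ac was 45.2, below the 50.9 over 50 kb from it. All 14 were on H3K27ac and 13 of them were among the 84 highest, so their choice lowers the first median by construction. With only the upper 50% of histone peaks by score the order also turned, to 38.2 against 53.3.

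The overlapping H3K27ac peaks differed in the same way. For the 15 EWS-FLI1 peaks on both marks the H3K27ac peak was narrow, with a median of 460 bp and a median percentile of 42.6 in the H3K27ac list, and its width was 1.05 times (quartiles 0.97 and 1.23) that of the EWS-FLI1 peak. For the 63 on H3K27ac alone it was 2375 bp wide, at a percentile of 79.4, and 5.87 times (2.91 and 8.79) as wide as the EWS-FLI1 peak. The EWS-FLI1 peaks themselves had similar medians, 393 and 375 bp. In the latter group 44 of the 63 lay wholly inside the acetylated peak, and 15 overlapped H3K27ac peaks that scored 3100 or more.

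**Figure D5:**
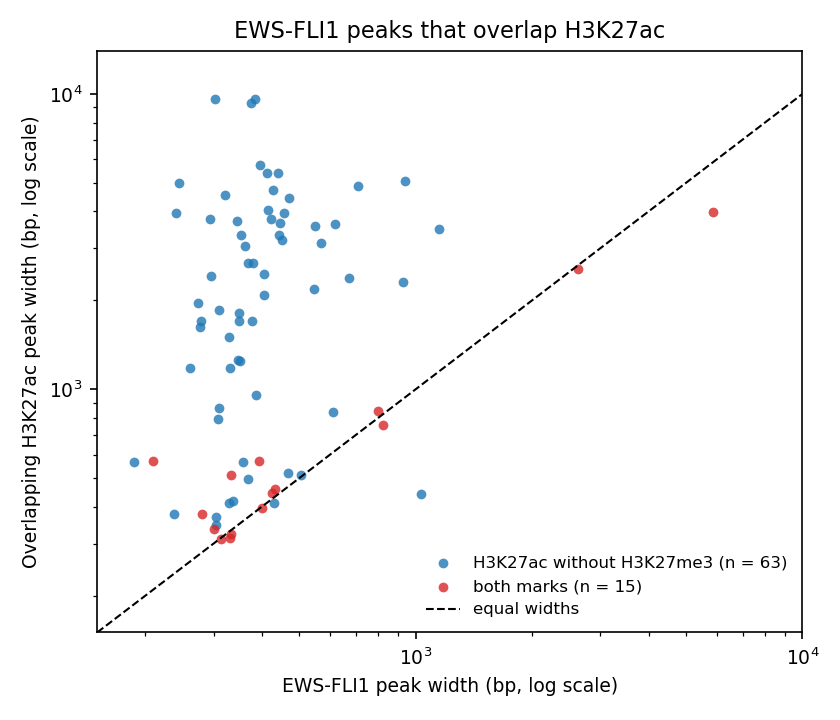
Width of each EWS-FLI1 peak at distance 0 from H3K27ac against the width of the H3K27ac peak it overlaps, both on log scales, with equal widths dashed. The 15 peaks on both marks (red) follow the dashed line, with a median ratio of 1.05, and most of the 63 on H3K27ac alone (blue) lie far above it, with a median of 5.87.

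ES48 gave readouts that the sorting had not used. Of all 335 peaks, 62 (18.5%) overlapped an EWS-FLI1 peak of ES48 and 94 (28.1%) an H3K27ac peak of ES48. On H3K27me3 22 of 29 overlapped an ES48 EWS-FLI1 peak (75.9%, 56.5 to 89.7), against 40 of the 306 others (13.1%, 9.51 to 17.4). By distance to H3K27ac the numbers were 22 of 78 at 0 (28.2%, 18.6 to 39.5), 5 of 15 up to 1 kb, 3 of 16 at 1 to 5 kb, 8 of 68 at 5 to 50 kb and 24 of 158 over 50 kb (15.2%, 9.98 to 21.8). All 15 peaks on both marks were matched in ES48, that is, overlapped an EWS-FLI1 peak there, and of the 63 on H3K27ac alone 7 were (11.1%, 4.59 to 21.6), with the 18.5% of the whole list inside that interval. With ES48 peaks up to 1 kb away counted as well, that number was 15 of 63, and 101 of 335 over all members. The 28.2% on H3K27ac was 12.5% without the peaks that overlap all 4 other lists (a fall that the choice of those peaks fixes, since each is matched in ES48), 16.4% with the upper 50% of histone peaks, 45.2% with the upper 50% of EWS-FLI1 peaks and 53.0% with chromosomes X and Y, and the 15.2% over 50 kb away was 27.6% with the upper 50% of EWS-FLI1 peaks.

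Matched peaks scored higher in ES49, with a median percentile of 83.4 over the 62 against 43.3 over the 273 others, so rank moves with the comparison. Among the 84 highest-scoring members, 14 of 14 peaks on both marks were matched in ES48, 5 of 6 on H3K27me3 alone, 3 of 10 on H3K27ac alone and 19 of 54 on neither mark. Over all 84 the number was 41 (48.8%). Among the other 251, 21 were matched (8.37%): 1 of 1 on both marks, 2 of 8 on H3K27me3 alone, 4 of 53 on H3K27ac alone and 14 of 189 on neither mark. The share on H3K27ac alone in that lower range was thus near that of all members there.

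The acetylation itself was common to the lines at these places. Of the 78 peaks on ES49 H3K27ac, 77 were on ES48 H3K27ac too, including all 63 without H3K27me3. How many of all ES49 H3K27ac peaks overlap ES48 H3K27ac was not counted, so whether this number is unusual cannot be said. The H3K27ac peaks met here were also wider than the rest of their list (medians of 1834.5 and 835 bp). The nearest ES48 H3K27ac peak was 3689 bp wide in the median over the 78 peaks, and 4483 bp over the 63 without H3K27me3. The ES48 H3K27ac list as a whole had a median width of 1485 bp. Peaks over 50 kb from ES49 H3K27ac met ES48 H3K27ac in 8 of 158 cases (5.06%, 2.21 to 9.73), and 3 of these 8 were on ES49 H3K27me3. Of the 63 without H3K27me3, 56 were on ES48 H3K27ac with no overlapping ES48 EWS-FLI1 peak (88.9%, 78.4 to 95.4), a share near that of all members without such an overlap (273 of 335).

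The 60 peaks on H3K27ac and over 50 kb from H3K27me3 formed 48 loci on 16 chromosomes. Of these peaks 46 overlapped H3K27ac peaks of at least 1 kb, and 41 of the 46 lay wholly inside them. Those 46 had a median percentile of 33.4, a median width of 382 bp (quartiles 329.5 and 449) and their H3K27ac peaks were 3267.5 bp wide in the median, at a percentile of 88.5. The remaining 14, which overlapped H3K27ac peaks of 346 to 953 bp, had a median percentile of 50.4, and 2 of them lay wholly inside. Within the acetylated peaks of at least 1 kb, the EWS-FLI1 midpoint fell at a median of 0.455 of the way from the lower to the upper coordinate (quartiles 0.208 and 0.577).

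Of the 5 highest-scoring of these 60 peaks that also had an ES48 EWS-FLI1 match, 3 lay in acetylated peaks of over 1 kb. The peak at chr5:142500372-142501309, 938 bp wide with a score of 261 (percentile 92.5), lay within H3K27ac of 5055 bp and 580294 bp from the nearest H3K27me3. The peak at chr15:61860817-61861196 scored 114.8 inside H3K27ac of 2669 bp (H3K27ac score 1037), which also held chr15:61860316-61860684 (score 54.3). The peak at chr1:76198376-76198729 scored 105.8 in a 3330 bp H3K27ac peak, beside chr1:76197927-76198368 (score 122.7). Such pairs on 1 acetylated peak recurred: the 60 EWS-FLI1 peaks fell on 53 H3K27ac peaks.

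The highest score on H3K27ac without H3K27me3, however, met a narrow and low-scoring H3K27ac peak. The peak at chr5:105356873-105357229 had a score of 999 (percentile 98.5), and its H3K27ac peak was 566 bp wide with a score of 100.5, at a percentile of 38.7. It was flanked by EWS-FLI1 peaks at chr5:105356618-105356804 (score 86.9) and chr5:105357310-105357645 (score 464), both on H3K27ac, by chr5:105356441-105356553 (score 145.1), 103 bp from H3K27ac, and by chr5:105354541-105354641 (101 bp, score 267), the highest-scoring peak at 1 to 5 kb from H3K27ac. The remaining one of the 5, at chr3:25434526-25435556, belongs to the crowded run on chromosome 3 described below.

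Wide acetylated peaks with EWS-FLI1 but no ES48 match included some of the strongest H3K27ac of the list. The following were picked after their values were seen. At chr5:120986761-120987144 EWS-FLI1 scored 106.2 inside a 9578 bp H3K27ac peak, which held a further EWS-FLI1 peak with a score of 53.1. At chr4:154246219-154246593 and chr4:154247180-154247650 EWS-FLI1 scored 86.3 and 230 in adjacent H3K27ac peaks of 9348 and 4442 bp. At chr3:61212912-61214059, the widest EWS-FLI1 peak of this kind with 1148 bp, the score was 206 and the H3K27ac peak 3499 bp wide. The highest EWS-FLI1 score in the 46 peaks on H3K27ac of at least 1 kb was 261, against a median of 517 on both marks.

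The 15 peaks on both marks formed 9 loci on 6 chromosomes, and 14 of them overlapped a peak in each of the 4 other lists. Their share of the members, 4.48%, was 8.38% among the upper 50% of EWS-FLI1 peaks by score, 8.52% with chromosomes X and Y and 1.19% with the upper 50% of histone peaks. The highest-scoring autosomal peak, chr17:36621598-36622023, was 426 bp wide with a score of 1956, over an H3K27ac peak of 446 bp and an H3K27me3 peak of 388 bp. At chr1:87487508-87490135 an EWS-FLI1 peak of 2628 bp (score 1693) met an H3K27ac peak of 2550 bp and an H3K27me3 peak of 2498 bp. At chr17:39979913-39985792 the EWS-FLI1 peak, 5880 bp wide with a score of 1383, met H3K27ac over 3992 bp and H3K27me3 over 3868 bp. The peaks chr2:27355162-27355959 (score 1425) and chr2:27356897-27357719 (score 1185) belong to a single run of 7.07 kb.

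At the first 2 of these places the 3 calls had nearly the same extent. Over the 15 EWS-FLI1 peaks the H3K27ac peak was 0.679 to 2.72 times as wide as the EWS-FLI1 peak. The H3K27me3 peaks there had a median width of 287 bp, below the 500 bp of that list. The ES49 input was not analysed here, so its signal at these places was not compared.

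EWS-FLI1 on H3K27me3 without H3K27ac came to 14 peaks in 7 loci, and 9 of the 14 were in crowded runs. The highest-scoring, chr13:4560381-4560788 (408 bp, score 620, percentile 97.9), lay 642557 bp from H3K27ac of ES49 on a 315 bp H3K27me3 peak, and ES48 had both EWS-FLI1 and H3K27ac there. Beside it, 1116 bp from that H3K27me3 peak, lay chr13:4559115-4559357 (score 158.6), the highest-scoring peak at 1 to 5 kb from H3K27me3. Chosen after their values were seen, chr1:90127557-90132671 and chr1:90134243-90136363 were the only members that met H3K27me3 peaks of over 4 kb: they were 5115 and 2121 bp wide with scores of 69.0 and 54.0, on H3K27me3 peaks of 4317 and 5518 bp.

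The 136 peaks over 50 kb from both marks were narrow, scattered and of middling rank. Their median width was 183.5 bp (quartiles 105 and 264.75), their median percentile 47.6 (24.2 and 74.4), and they formed 109 loci on 19 chromosomes. The nearest H3K27ac peak lay at a median of 303 kb and the nearest H3K27me3 peak at 603 kb. Chromosome 1 held 18 of them, chromosome 14 held 16 and chromosome 8 held 14. In chromosome 14 they made up 16 of its 18 members, and in chromosome 5, where 17 of 32 members were on H3K27ac, they were 8.

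High scores were not missing there. Of the 136 peaks 33 were among the 84 highest-scoring members (24.3%, near the 25.1% of all members), and 16 (11.8%, 6.88 to 18.4) overlapped an ES48 EWS-FLI1 peak. The 2 highest, chr18:7321226-7321540 (315 bp, score 516) and chr18:7320012-7320415 (404 bp, score 487), are part of 1 locus, and both were matched by ES48 EWS-FLI1 peaks and lay 304607 and 305732 bp from H3K27ac of ES48. The widest of all members, chr11:3030644-3038140 (7497 bp, score 163.9), was in this class too, with no ES48 peak on it. Among all 243 peaks on neither mark, sharing with ES48 was rarer for narrow ones. Of the 101 under 200 bp, 5 were matched (4.95%), against 28 of the 142 wider ones (19.7%). A narrow peak meets other peaks less often, and the narrow ones also ranked lower, with a median percentile of 43.3 against 52.5.

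Many of the peaks between the extremes lay in crowded loci. The 5 crowded loci held 90 of the 335 members. The run at chr3:25418213-25456256 held 27 peaks in 38.04 kb. Of these 1 was on the single H3K27ac peak of the run, 441 bp wide with a score of 62.3, and the nearest H3K27me3 lay 374 kb away or more. It supplied chr3:25419310-25420705 (1396 bp, score 334) and chr3:25451705-25452671 (score 232), 2 of the 3 highest-scoring peaks at 5 to 50 kb from H3K27ac, together with chr3:25437513-25438363 (score 158.3) and chr3:25436408-25437286 (score 153.3) at 1 to 5 kb and chr3:25433466-25434455 (score 192.6) up to 1 kb. Its peaks were wide, with a median of 528 bp, and ES48 had 6 EWS-FLI1 peaks in the run, which overlapped 2 of the 27.

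The run at chr2:27351241-27358306 was the densest and highest in rank, with 11 peaks in 7.07 kb and a median percentile of 91.3. Of the 11, 5 were on H3K27ac and 4 on H3K27me3, and all lay within 1.84 kb of each mark. They include chr2:27356281-27356656 (score 371) and chr2:27357984-27358306 (score 272), the 2 highest-scoring peaks up to 1 kb from either mark without touching it, chr2:27352796-27353300 (score 245), 44 bp from H3K27me3, and chr2:27351241-27351508 (score 118.0) at 1 to 5 kb from it. ES48 had 9 EWS-FLI1 and 4 H3K27ac peaks in the same stretch, and 7 of the 11 members overlapped an ES48 EWS-FLI1 peak.

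The remaining runs were lower in rank. On chromosome 1 the run at chr1:84516379-85339075 held 22 peaks with a median percentile of 48.7, 5 of them on H3K27me3 and 1 on H3K27ac, and chr1:85258395-85259549 (1155 bp, score 187.6) led the class at 5 to 50 kb from H3K27me3. The run at chr1:87378026-87523878 held 20 peaks with a median percentile of 22.5, around the peak of score 1693 named above. Among its others were chr1:87485057-87485650 (score 119.9), 1938 bp from H3K27me3, and chr1:87521111-87521850 (score 164.3), 28882 bp from it. The run at chr8:71942562-72129497 held 10 peaks with a median percentile of 34.7, 0 on H3K27ac, 2 on H3K27me3 and 0 matched by ES48 EWS-FLI1. Outside runs, chr7:29279122-29279454 (333 bp, score 247) lay 41449 bp from ES49 H3K27ac but on an ES48 EWS-FLI1 and an ES48 H3K27ac peak, and chr6:49186390-49186681 (score 142.4) lay 10481 bp from H3K27me3 with no ES48 match.

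Without the crowded loci 245 members remained, and widths, ranks and matches were as follows. On H3K27ac were 70 (28.6%, 23.0 to 34.7), and on H3K27me3 15 (6.12%, 3.47 to 9.90), 10 of them on both. Median widths were 364.5 bp on H3K27ac and 181.5 bp over 50 kb from it, and median percentiles 50.3 and 49.7. On H3K27me3 the median percentile was 91.9, and 13 of 15 peaks were matched in ES48.

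H3K27ac peaks that held EWS-FLI1 were few in their list: 68 of 29009 (0.234%) were the closest match of an EWS-FLI1 peak on H3K27ac. Their median width was 1834.5 bp (quartiles 555 and 3639.5) and their median percentile 74.9, against 835 bp (451 and 1630) and 49.9 for the others. A wide peak is met more often by any other list, which these values do not take into account. The 29 H3K27me3 peaks with EWS-FLI1 went the other way in width, with a median of 315 bp (255 and 438) and a percentile of 36.2, against 501 bp (372 and 787) and 50.01.

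The 410 autosomal EWS-FLI1 peaks of ES48 were sorted by their distance to ES48 H3K27ac in the same way. At 0 were 67 (16.3%, 12.9 to 20.3), at 5 to 50 kb 160 (39.0%, 34.3 to 43.9) and over 50 kb 135 (32.9%, 28.4 to 37.7), against 23.3%, 20.3% and 47.2% in ES49. The H3K27ac lists themselves differ, with 25313 autosomal peaks over 47.3 Mb in ES48 and 29009 over 35.1 Mb in ES49. The share of the span was not counted for ES48, so these values do not show that placement differs between the lines. Width changed little in ES48, with medians of 196 bp at 0 and 179 bp over 50 kb, while the median percentile was 85.2 at 0 and 49.8 over 50 kb. The corresponding ES49 medians were 376 and 193 bp, and 53.3 and 49.1. ES48 widths varied little, with quartiles of 168 and 191 bp over the list. A score below 60 was held by 59.8% of the ES48 and 22.4% of the ES49 autosomal peaks. The score scale is not stated, so these shares cannot be read as a difference in call strength. The difference between the lines was not tested, with 1 library each.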

How the data were processed

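EWS-FLI1, H3K27ac and H3K27me3 peak lists of ES49 were used, with the EWS-FLI1 and H3K27ac lists of ES48 as further readouts. Per the submitters' processing notes, the build was mm9 and the tools were Bowtie 1.1.1 and SAMtools 1.2. Peaks were named after MACS, per the peak names in the files. How the caller was run, and against which control, is not given in the sources used here. In column 5 of the deposited files stands a score for every peak, the authors' own value, whose scale is not stated. Scores were therefore only ranked within a list. Depth is unknown, since the lists hold no read counts.

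Starts were read as BED and are printed counted from 1. Distances run between nearest edges, and touching peaks are 1 bp apart. Shares carry 95% Clopper-Pearson intervals, and medians carry quartiles. With 1 library per antibody and line, no test was made. The functions were tested on simulated data with known distances. The regions named are the 3 highest-scoring peaks of each distance class, the 5 highest on both marks, the 5 highest on H3K27ac with an ES48 match and over 5 kb from H3K27me3, the peaks at class limits and the crowded loci; neighbours of these peaks, the widest member and a few others were picked after their values were seen. Alternatives varied the overlap, the distance measure, score cuts, joining, crowded loci, chromosomes and the ranking. Members, classes and rules were chosen with earlier results of these data known. No sequence or annotation of mm9 was used here. Computation was done in Python 3.11.15 with scipy 1.17.1, pandas 2.3.3, matplotlib 3.10.9 and numpy 2.4.6.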

Additional observations from a re-analysis of the deposited data

How the results depend on the processing

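Widths were larger at distance 0 than over 50 kb from each mark under all 9 settings with a width, the first included, and percentiles were higher at 0 from H3K27me3 under all 10 with a percentile. The percentile at 0 from H3K27ac, 53.3 against 49.1, turned below that over 50 kb with the upper 50% of histone peaks by score (38.2 against 53.3) and, in a setting added after the data were seen, without the peaks that overlap all 4 other lists (45.2 against 50.9). That last setting leaves out 14 peaks on H3K27ac, 13 of them among the 84 highest-scoring, which lowers the value at 0 by construction. Of 132 values recomputed, 94 stayed within the interval of the value first given, including all 16 with an overlap of 50% of the shorter peak and all 16 with the distance from the midpoint.

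The others moved as follows, and the cause was not tested except where the setting itself fixes it. With the upper 50% of EWS-FLI1 peaks by score, 13.8% lay on H3K27me3 and 8.38% on both marks, the width on H3K27ac was 436.5 bp, and 45.2% on H3K27ac and 27.6% over 50 kb from it were matched in ES48. With the upper 50% of histone peaks, by construction fewer to meet, 16.4% lay on H3K27ac, 3.88% on H3K27me3 and 1.19% on both; 63.3% and 82.7% lay over 50 kb from H3K27ac and H3K27me3, the width far from H3K27ac was 236.5 bp, and 16.4% on H3K27ac were matched. With peaks under 5 kb apart joined, 55.1% and 85.5% lay over 50 kb from H3K27ac and H3K27me3, and widths were 458.5 and 173.5 bp at 0 and over 50 kb from H3K27ac and 1674 and 230.0 bp for H3K27me3. Without crowded loci 28.6% lay on H3K27ac, and 53.9% and 86.9% lay over 50 kb from the marks. With chromosomes X and Y, 12.6% lay on H3K27me3, 55.4% over 50 kb from it and 8.52% on both marks. Percentiles were then 74.0 and 41.6 at 0 and over 50 kb from H3K27ac and 38.8 over 50 kb from H3K27me3. Widths were 164 bp far from H3K27ac, and 510.0 and 201 bp on and far from H3K27me3. Matches in ES48 were 53.0% on H3K27ac and 91.9% on H3K27me3. Ranked among all 681 peaks, percentiles over 50 kb away were 35.8 for H3K27ac and 33.8 for H3K27me3. Without the peaks on all 4 other lists, which by their choice are on both marks and matched in ES48 so that these shares had to fall, 4.67% lay on H3K27me3 and 0.312% on both, and matches were 12.5% on H3K27ac and 53.3% on H3K27me3. No paired analysis was possible because each group holds 1 library.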
